A study of Arabidopsis thaliana with 4 samples.

Results

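The genes described here are 10 enzymes of flavonoid and anthocyanin synthesis in *Arabidopsis thaliana*, read on 4 Agilent 2-colour arrays. All probes annotated to these 10 loci were taken, whatever their values, which gave 16 of the 43603 non-control probes and 10 of the 25482 loci with a probe. A probe entered the tests where 2 or more arrays had it well above background in 1 or both dyes, which held for all 16 of these and for 34724 probes in all.

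Each array held a line against itself, with the Al-treated plants in Cy5 and the untreated plants in Cy3. There were 2 arrays of the *AvSAMS1* TF line and 2 of Col-0. The *AvSAMS1* TF line is TF6, a homozygous line of 1 transformation event in the Col-0 ecotype, in which the CaMV 35S promoter drives an S-adenosylmethionine synthetase gene of the wild grass *Andropogon virginicus*, and Col-0 is its parental non-TF line. Each array compared separate pools of plants, and the replicate numbers were taken to mark 2 independent sets of RNA. The plants of both lines were about 3 weeks old and were kept with Al at pH 4.2 for 2 d. The labels give the dose as 300 mM aluminium chloride and the methods as 300 μM Al. They also give the untreated plants of replicate 1 as collected at 0 d and those of replicate 2 at 2 d, in both lines. The labels name the whole plant as tissue but shoots in the labelling step.

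Flavonoids are made from the phenylpropanoid coumaroyl-CoA. Chalcone synthase and chalcone isomerase make the flavanone skeleton, hydroxylases add hydroxyl groups, and flavonol synthase turns the dihydroflavonols into flavonols, the sunscreen and antioxidant compounds of Arabidopsis leaves. Dihydroflavonol reductase (DFR) and leucoanthocyanidin dioxygenase (LDOX) lead the same precursors towards the anthocyanin pigments. In Arabidopsis the genes of the early steps are known as targets of the flavonol MYB factors and the genes of the late steps as targets of a complex of MYB, bHLH and WD40 proteins, to which *PAP1* and *TTG1* belong.

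The values below are log2 ratios of Al-treated over untreated plants on 1 array, so that a ratio of -1 is a 2-fold lower signal in the Al-treated plants. The 4 arrays did not share 1 response. Over the 25773 probes for which all 8 channel values were well above background, the log2 ratios of the 2 *AvSAMS1* TF arrays had a Pearson correlation of -0.28 with each other and those of the 2 Col-0 arrays one of 0.48. *AvSAMS1* TF replicate 2 and Col-0 replicate 2, which lay on 1 slide, had one of 0.83, and *AvSAMS1* TF replicate 1 and Col-0 replicate 2 one of -0.33. The replicate 1 arrays of the lines had one of 0.08, and *AvSAMS1* TF replicate 2 and Col-0 replicate 1 one of 0.46. The dyes are stated in the methods, so the direction was kept. The replicate 1 arrays were dimmer, with a median untreated signal of 154 in replicate 1 and 517 in replicate 2 of *AvSAMS1* TF, and of 247 and 511 in those of Col-0. The dyes were not exchanged, so a dye effect of a probe stays in the ratios of both lines.

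No enzyme passed an adjusted p of 0.05 in any comparison. For the Al response, limma called 0% of the 34724 probes in *AvSAMS1* TF, in Col-0, over both lines and for the difference between the lines, and the lowest adjusted p was 0.991, 0.656, 0.469 and 0.999 in these comparisons. At an unadjusted p of 0.05 it called 1207 probes (3.48%) in *AvSAMS1* TF, 2615 (7.53%) in Col-0, 3128 (9.01%) over both lines and 334 (0.962%) for the difference. Of the 10 enzymes, only *FLS5* was below this unadjusted limit, with a lower signal after Al in *AvSAMS1* TF and over both lines, where the limit took 1.94% and 4.91% of all probes in that direction. With the replicate number as a block this was not so, and the same limit also took *DFR* in *AvSAMS1* TF, *F3H* and *FLS1* in Col-0, and *CHI* and *DFR* over both lines, beside 9.47%, 11.8% and 15.3% of all probes in these comparisons. None of them passed after adjustment.

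*CHS* (AT5G13930) encodes chalcone synthase, the entry enzyme of the pathway. Its log2 ratios were 1.29 and -1.12 in *AvSAMS1* TF (replicates 1 and 2) and 0.24 and -1.32 in Col-0. In each line the ratio was above 0 in replicate 1 and below -1 in replicate 2, and the lines overlapped. The means were 0.09 ± 1.70 in *AvSAMS1* TF and -0.54 ± 1.11 in Col-0 (SD, n = 2 each), so that the spread within a line was larger than the difference between the lines of 0.63 ± 1.07 (SE, adjusted p = 0.999).

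*CHI* (AT3G55120) encodes chalcone isomerase, which closes the ring of the chalcone. Its log2 ratios were -0.47 and -1.06 in *AvSAMS1* TF and -0.05 and -0.71 in Col-0. It was the only one of the 10 enzymes below 0 on all 4 arrays, where 11.4% of all probes were. Its mean over both lines was -0.57 ± 0.23 (SE, adjusted p = 0.568). *CHIL* (AT5G05270) encodes a chalcone isomerase-like protein without isomerase activity that helps chalcone synthase make the right product. Its log2 ratios were 2.52 and -0.81 in *AvSAMS1* TF and -0.16 and -0.75 in Col-0. The single high value rests on an untreated signal of 11.8 that was not well above background, against a treated signal of 67.4 on the same array. The size of that ratio is therefore not measured.

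*F3H* (AT3G51240), flavanone 3-hydroxylase, makes the dihydroflavonols from which flavonols and anthocyanins are both built. It had log2 ratios of 0.40 and -0.67 in *AvSAMS1* TF and of -0.33 and -1.40 in Col-0. A second, dimmer probe had 1.13 and -0.78 in *AvSAMS1* TF and -0.09 and -1.25 in Col-0, the same order of the 4 arrays. Its 1.13 rests on an untreated signal of 15.2 that was not well above background, so its size is not measured. *F3'H* (AT5G07990), flavonoid 3'-hydroxylase, adds the hydroxyl group that sets quercetin and cyanidin apart from kaempferol and pelargonidin. Its ratios were 0.19 and -0.25 in *AvSAMS1* TF and 0.28 and -0.89 in Col-0, with 0.66, -0.46, 0.42 and -1.02 for the second probe. In the third probe only 2 of the 8 channel values were well above background, and its ratios of 0.43, -2.36, -1.68 and 0.00 did not follow the other probes.

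*FLS1* (AT5G08640) encodes the main flavonol synthase of Arabidopsis. The gene had log2 ratios of 0.97 and -1.001 in *AvSAMS1* TF and -0.10 and -1.85 in Col-0. The ratio of Col-0 replicate 2 was the lowest of all early enzymes on any array. As in *CHS*, *CHIL* and *F3H*, the value of *AvSAMS1* TF replicate 1 was the highest of the 4, with an untreated signal of 42.1 that was not well above background.

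**Figure D1:**
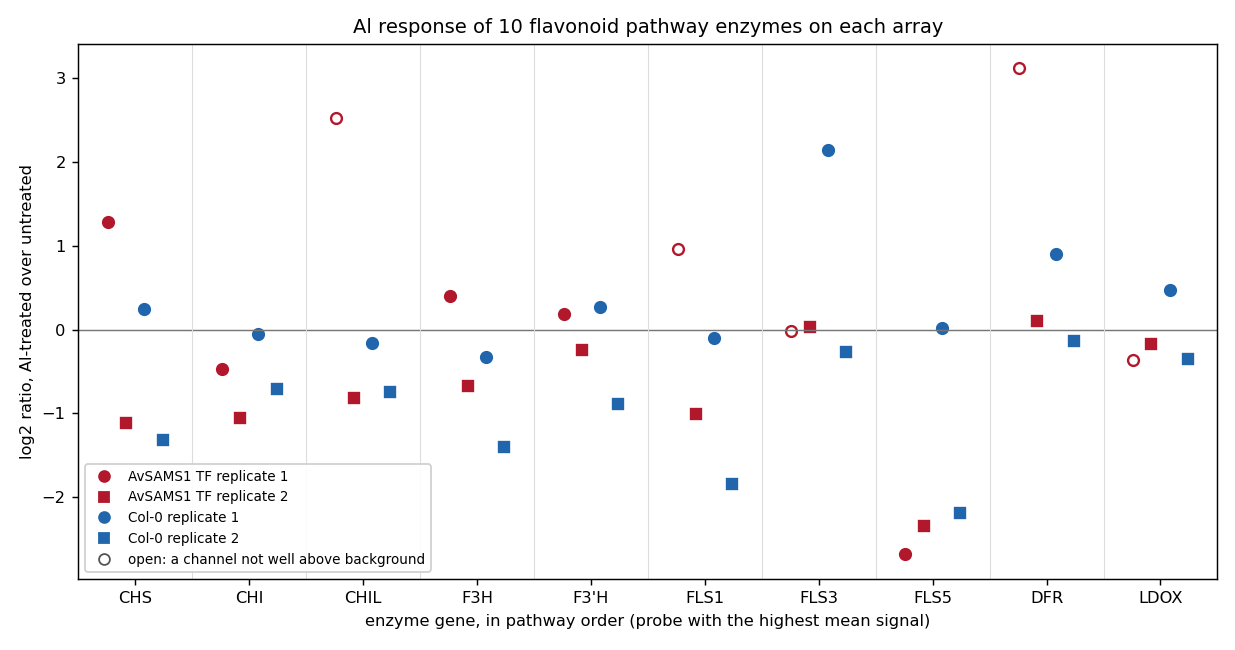
Log2 ratio of Al-treated over untreated plants (vertical axis) for the brightest probe of each of the 10 enzymes (horizontal axis, in pathway order) on each of the 4 arrays, with *AvSAMS1* TF in red, Col-0 in blue, replicate 1 as circles and replicate 2 as squares. Open symbols had a channel not well above background. The squares of the early enzymes lie below 0 in both lines, and the red circles of *CHIL* and *DFR*, both open, are the highest values, at 2.52 and 3.12.

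Over the 10 enzymes, 4 were below 0 on *AvSAMS1* TF replicate 1, 8 on *AvSAMS1* TF replicate 2, 4 on Col-0 replicate 1 and 10 on Col-0 replicate 2, beside 47.8%, 53%, 47.5% and 51.1% of all probes. On both replicate 2 arrays 8 enzymes were below 0 (41.9% of all probes), namely the 6 early enzymes with *FLS5* and *LDOX*. In 7 enzymes replicate 2 was below replicate 1 in both lines (32.3% of all probes): the 6 early enzymes and *DFR*. A direction shared by the early enzymes of both lines was thus seen on the replicate 2 arrays. On the replicate 1 arrays the early median was 0.68 in *AvSAMS1* TF and -0.08 in Col-0, so none was seen there. The replicate number stands for the set of RNA, the slide, the scan, the software version and the labelled age of the untreated plants at once, and these cannot be told apart. Within replicate 2, where both lines lay on 1 slide, the difference between the lines was 0.21 for *CHS*, -0.35 for *CHI*, -0.07 for *CHIL*, 0.73 for *F3H*, 0.64 for *F3'H* and 0.84 for *FLS1*. Within replicate 1, where the lines lay on different slides, it was 1.05, -0.42, 2.68, 0.73, -0.08 and 1.07 for the same genes. Of these, the values of *CHIL* and *FLS1* include a channel not well above background.

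*FLS5* (AT5G63600) had the lowest ratio of the 10 enzymes on 3 of the 4 arrays, all but Col-0 replicate 1. This gene resembles *FLS1*, but its protein is not known to make flavonols to any extent. It was picked by the study from these arrays as a gene that Al lowered, and lowered further in *AvSAMS1* TF than in Col-0. Its direction and the order of the lines are therefore no independent evidence here. Its log2 ratios were -2.68 and -2.34 in *AvSAMS1* TF and 0.02 and -2.18 in Col-0. On the linear scale the Al-treated signal was 0.156 and 0.197 of the untreated one in *AvSAMS1* TF and 1.02 and 0.220 of it in Col-0, so 3 arrays were alike and Col-0 replicate 1 stood apart. *FLS5* was at -1 or below on both *AvSAMS1* TF arrays, as were 1.25% of all probes, and it was the only enzyme whose *AvSAMS1* TF ratios both lay below both Col-0 ratios (12% of all probes). The other probes of the gene gave -2.76, -2.39, 0.03 and -2.26 on the same arrays, and for the third, dim probe with 4 of 8 values well above background -1.69, -1.84, -0.81 and -1.14.

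The mean log2 ratio of *FLS5* was -2.51 ± 0.24 in *AvSAMS1* TF and -1.08 ± 1.56 in Col-0 (SD, n = 2 each). The Al response had an adjusted p of 0.991 in *AvSAMS1* TF, 0.729 in Col-0 and 0.511 over both lines, where the mean was -1.80 ± 0.43 (SE). In the brightest probe the difference between the lines of -1.43 ± 0.86 (SE, adjusted p = 0.999) rested on Col-0 replicate 1. It was -0.33 without that array and -2.54 without Col-0 replicate 2. The third, dim probe differed by -0.88 in replicate 1, at background in both lines, and by -0.70 in replicate 2. In that probe the difference thus did not rest on Col-0 replicate 1 alone. The levels of the brightest probe show where Col-0 replicate 1 differed. On a log2 scale normalized between arrays, the Al-treated samples were at 9.82 and 10.74 in *AvSAMS1* TF and at 10.53 and 10.60 in Col-0. The untreated samples were at 12.34 and 13.00 in *AvSAMS1* TF and at 10.52 and 12.67 in Col-0, so that the untreated sample of Col-0 replicate 1 was the low one of 4, while the Al-treated samples of the lines overlapped.

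*FLS3* (AT5G63590) is a relative of *FLS1* for which weak flavonol synthase activity has been described. The log2 ratios of its brighter probe were -0.01 and 0.03 in *AvSAMS1* TF and 2.14 and -0.27 in Col-0. Only Col-0 replicate 1 was high, and the second probe had the same pattern, with -0.26 and -0.23 in *AvSAMS1* TF and 1.59 and 0.05 in Col-0. The means were 0.01 ± 0.03 in *AvSAMS1* TF and 0.94 ± 1.70 in Col-0 (SD, n = 2 each), with an adjusted p of 0.999 for the difference. In *AvSAMS1* TF replicate 1 its untreated signal was not well above background.

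In the RefSeq gene table (TAIR10.1) *FLS2*, *FLS3*, *FLS4* and *FLS5* follow each other as neighbouring protein-coding genes on chromosome 5. The neighbours did not share the pattern of *FLS5*. *FLS2* (AT5G63580) had log2 ratios of 3.93 and 0.07 in *AvSAMS1* TF and of 1.34 and 0.69 in Col-0, above 0 on all 4 arrays and well above background throughout. *FLS4* (AT5G63595) had 0.01 and 0.34 in *AvSAMS1* TF and 0.86 and 0.26 in Col-0 for its brightest probe, and *FLS6* (AT5G43935), which lies elsewhere on the chromosome, was well above background in only 3 of 8 channel values. None of the 3 passed the test, with an adjusted p of 0.592 over both lines for *FLS2*. Probe sequences were not analysed here, so whether a probe of 1 gene also bound RNA of its neighbours was not tested.

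**Figure D2:**
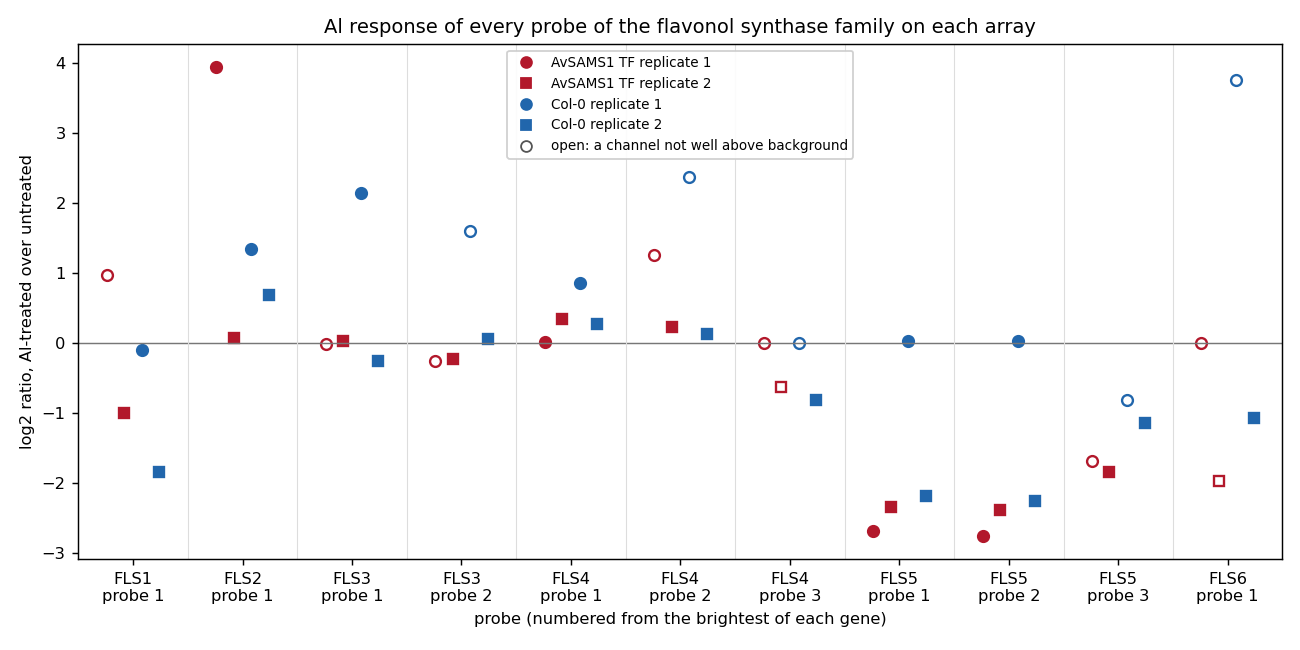
Log2 ratio of Al-treated over untreated plants (vertical axis) for every probe of *FLS1* to *FLS6* (horizontal axis, numbered from the brightest probe of each gene) on each of the 4 arrays, with *AvSAMS1* TF in red, Col-0 in blue, replicate 1 as circles and replicate 2 as squares. Open symbols had a channel not well above background. The first and second *FLS5* probes lie between -2.76 and -2.18 on 3 arrays and at 0.02 and 0.03 on Col-0 replicate 1, while *FLS2* reaches 3.93 on *AvSAMS1* TF replicate 1.

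*DFR* (AT5G42800) makes the leucoanthocyanidins and is the first enzyme committed to anthocyanins. Its log2 ratios were 3.12 and 0.10 in *AvSAMS1* TF and 0.90 and -0.13 in Col-0. The highest of them, a measured 8.68-fold, came from an untreated signal of 5.68 that was not well above background and a treated signal of 49.3. *FLS1*, at 42.1 in the same channel, was not well above background either, so no lower limit of the fold is given. The mean was 1.61 ± 2.13 in *AvSAMS1* TF and 0.38 ± 0.73 in Col-0 (SD, n = 2 each). The difference of 1.23 ± 1.18 (SE, adjusted p = 0.999) turned to -0.07 when normexp background correction and loess replaced the Feature Extraction ratio.

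*LDOX* (AT4G22880) acts after *DFR* and makes the coloured anthocyanidins. It had log2 ratios of -0.36 and -0.17 in *AvSAMS1* TF and 0.47 and -0.35 in Col-0, the narrowest range of the 10 enzymes. On *AvSAMS1* TF replicate 1 neither of its channels was well above background, so that the high ratio of *DFR* on this array had no counterpart that could be measured in the next enzyme.

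The early enzymes were set against the late ones within each array. The median of the early log2 ratios (*CHS*, *CHI*, *CHIL*, *F3H*, *F3'H* and *FLS1*) was 0.68 and -0.91 in *AvSAMS1* TF (replicates 1 and 2) and -0.08 and -1.11 in Col-0. The median of *DFR* and *LDOX* was 1.38 and -0.03 in *AvSAMS1* TF and 0.68 and -0.24 in Col-0. Early minus late was -0.87 on *AvSAMS1* TF replicate 2 and -0.76 and -0.86 on the Col-0 arrays, where all 8 genes were well above background in both channels and both late genes lay above all 6 early genes. On *AvSAMS1* TF replicate 1 the computed value was -0.70, but *DFR*, *LDOX*, *CHIL* and *FLS1* each had a channel not well above background there, so that the order of early and late genes was not measured on that array. It turned to 0.26 there with normexp and loess and to 0.78 when *F3'H* was counted as a late step. These are descriptions of 6 against 2 genes read on the same arrays, and no test was made.

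**Figure D3:**
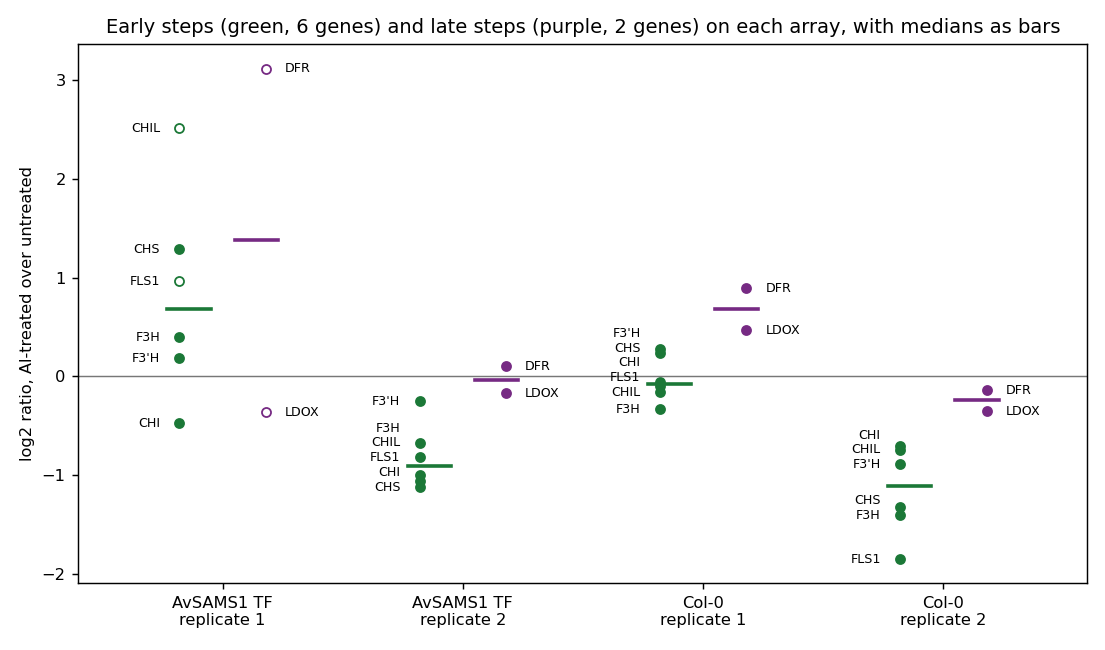
Log2 ratio of Al-treated over untreated plants (vertical axis) of the 6 early genes (green) and the 2 late genes (purple) on each array (horizontal axis), with a bar at each median and gene names in the order of their values. Open symbols had a channel not well above background. On 3 arrays both purple points lie above all green points, and on *AvSAMS1* TF replicate 1 both purple points are open, so the place of their bar is not measured.

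The lines were also compared within each dye, Al-treated against Al-treated and untreated against untreated plants. These levels are log2 signals after normexp (offset of 50), loess and Aquantile, and the offset draws low signals together, so that differences of dim probes are understated. Of all 34724 probes, 228 (0.657%) differed at an adjusted p of 0.05 between the Al-treated plants of the lines and 74 (0.213%) between the untreated plants, or 367 with the replicate number as a block. None of the 10 enzymes was among the probes called in these fits. In such pooled plants, fewer cells that make a transcript and less of it in each cell cannot be told apart.

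In these samples the levels of most of the enzymes were lower in *AvSAMS1* TF than in Col-0. In the Al-treated plants, both *AvSAMS1* TF samples lay below both Col-0 samples for 7 of the 10 enzymes (*CHS*, *CHI*, *CHIL*, *F3H*, *FLS1*, *FLS3* and *LDOX*), beside 18.4% of all probes. In the untreated plants this was so for 5 of them (*CHS*, *CHIL*, *F3H*, *FLS1* and *LDOX*), beside 20.5% of all probes. The untreated *AvSAMS1* TF replicate 1 values of *CHIL*, *FLS1* and *LDOX* were not well above background, nor was the Al-treated one of *LDOX*. At an unadjusted p of 0.05, 5 enzymes were lower in the Al-treated plants (*CHS*, *CHIL*, *F3H*, *FLS3* and *LDOX*), where 3.72% of all probes were lower by that limit and 8.65% differed in either direction. The same limit took 4 enzymes in the untreated plants (*CHS*, *CHIL*, *F3H* and *LDOX*), where 3.18% of all probes were lower and 7.29% differed. Both dyes of an array were normalized together, so the treated and untreated samples are not independent sets of evidence.

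*CHIL* had the lowest p of the 10 in the Al-treated plants. Its Al-treated levels were 7.63 and 7.39 in *AvSAMS1* TF and 9.03 and 9.03 in Col-0, and its untreated levels 7.05 and 7.96 in *AvSAMS1* TF and 9.07 and 9.67 in Col-0. The groups did not overlap in either treatment, but the untreated value of *AvSAMS1* TF replicate 1 was not well above background. *AvSAMS1* TF minus Col-0 was -1.52 ± 0.24 in the Al-treated plants (SE, adjusted p = 0.132) and -1.87 ± 0.45 in the untreated plants (SE, adjusted p = 0.448, or 0.0593 with the replicate number as a block).

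For *CHS*, the Al-treated levels were 8.48 and 8.02 in *AvSAMS1* TF and 9.66 and 9.20 in Col-0, and the untreated levels 7.67 and 8.95 in *AvSAMS1* TF and 9.46 and 10.37 in Col-0. The higher *AvSAMS1* TF value was thus below the lower Col-0 value in both treatments. The differences were -1.18 ± 0.31 in the Al-treated plants (SE, adjusted p = 0.354) and -1.60 ± 0.59 in the untreated plants (SE, adjusted p = 0.681). Within the replicate numbers *CHS* differed by -1.18 for both numbers in the Al-treated plants and by -1.79 and -1.42 in the untreated plants.

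For *F3H*, the Al-treated levels were 8.42 and 8.60 in *AvSAMS1* TF and 10.25 and 9.17 in Col-0, and the untreated levels 8.18 and 9.13 in *AvSAMS1* TF and 10.54 and 10.42 in Col-0. Here the gap between the lines was wider in replicate 1 than in replicate 2, with -1.83 and -0.56 in the Al-treated plants and -2.36 and -1.29 in the untreated plants. The differences were -1.20 ± 0.42 (SE, adjusted p = 0.530) and -1.83 ± 0.41 (SE, adjusted p = 0.407), and the second probe lay in the same direction, with -0.72 ± 0.39 in the Al-treated and -0.94 ± 0.38 in the untreated plants (SE). In untreated *AvSAMS1* TF replicate 1 that second probe was not well above background. *FLS1* was at 7.78 and 7.12 in Al-treated *AvSAMS1* TF and at 7.96 and 8.11 in Al-treated Col-0. In the untreated plants it was at 7.25 and 7.94 in *AvSAMS1* TF and at 7.95 and 9.62 in Col-0, so that the nearest values of the lines all but met. The 7.25 came from a signal not well above background.

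Of the late genes, *LDOX* was at 6.62 and 7.09 in Al-treated *AvSAMS1* TF against 8.71 and 7.53 in Al-treated Col-0, and at 6.84 and 7.14 in untreated *AvSAMS1* TF against 8.25 and 7.71 in untreated Col-0. The *AvSAMS1* TF values of replicate 1 were not well above background. *DFR* was at 7.29 and 9.26 in Al-treated *AvSAMS1* TF against 9.74 and 9.08 in Al-treated Col-0, and at 6.82 and 9.13 in untreated *AvSAMS1* TF against 8.91 and 9.16 in untreated Col-0. For *DFR* only *AvSAMS1* TF replicate 1 was low, in both treatments, while in replicate 2 the lines differed by 0.18 and -0.03. Its untreated value in *AvSAMS1* TF replicate 1 was not well above background.

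*F3'H* did not lie lower in *AvSAMS1* TF in its brightest probe. Its levels were 9.08 and 8.82 in Al-treated *AvSAMS1* TF against 9.08 and 7.99 in Al-treated Col-0, and 8.88 and 8.97 in untreated *AvSAMS1* TF against 8.86 and 8.60 in untreated Col-0. The differences of 0.41 ± 0.43 in the Al-treated and 0.20 ± 0.26 in the untreated plants (SE, adjusted p = 0.912 and 0.920) lay on the other side of 0 from those of the other 5 early enzymes. The second probe, also well above background throughout, differed by 0.18 ± 0.41 in the Al-treated and -0.0057 ± 0.39 in the untreated plants (SE), and the dim one by -0.20 and -0.14, so no direction of *F3'H* is given. *CHI* was at 8.17 and 8.56 in Al-treated *AvSAMS1* TF against 9.15 and 8.82 in Al-treated Col-0, but its untreated levels of 8.42 and 9.43 in *AvSAMS1* TF and 9.13 and 9.44 in Col-0 overlapped. *FLS3* was at 7.10 and 7.88 in Al-treated *AvSAMS1* TF against 8.60 and 8.39 in Al-treated Col-0, and at 7.11 and 7.81 in untreated *AvSAMS1* TF against 7.32 and 8.60 in untreated Col-0, where the lines overlapped. The 7.11 came from a signal not well above background.

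**Figure D4:**
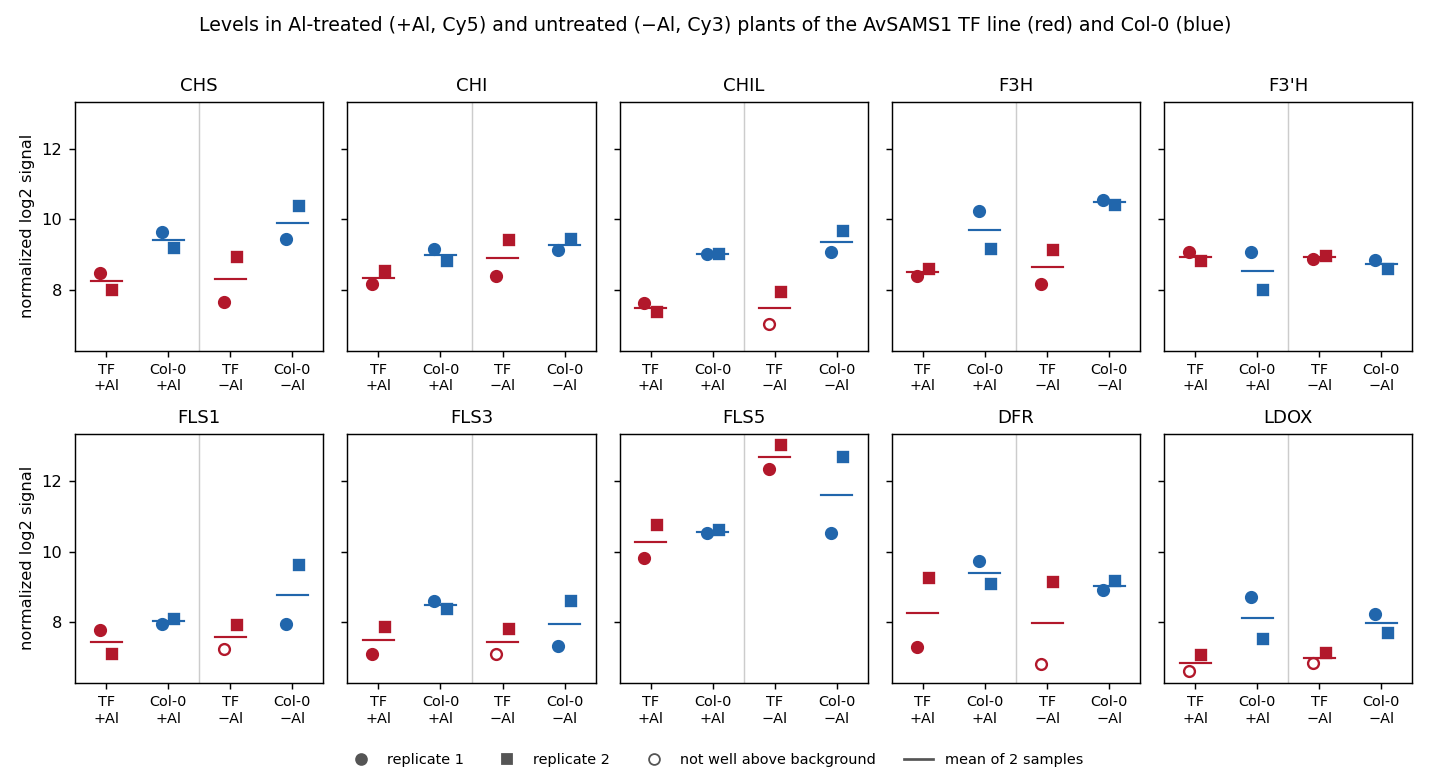
Normalized log2 signal (vertical axis) of each of the 10 enzymes in the Al-treated and untreated plants of *AvSAMS1* TF (red) and Col-0 (blue), with 1 panel a gene, replicate 1 as circles, replicate 2 as squares and a line at the mean of the 2 samples. Open symbols were not well above background. Red symbols lie below blue ones within each treatment for *CHS*, *CHIL*, *F3H*, *FLS1* and *LDOX*, but not for *F3'H*, and the untreated *FLS5* sample of Col-0 replicate 1 stands at 10.52 while the other 3 untreated samples lie between 12.34 and 13.00.

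The levels of the enzymes were also correlated with each other over the 8 channel values (4 Cy3 and 4 Cy5). These values come from only 4 arrays and share line, replicate number and normalization, so the coefficients are descriptions. *CHS* and *CHIL* had a Pearson r of 0.97, *CHS* and *F3H* 0.91, *CHIL* and *F3H* 0.90 and *F3H* and *LDOX* 0.88, while the lowest was -0.43, between *F3'H* and *FLS3*. Over all probes that passed the filter, the loci most like *CHS* were AT1G79470, *NRS/ER*, *PYRD*, *PP2-A9* and AT1G11730, with r between 0.97 and 0.98. *NRS/ER* makes UDP-rhamnose, and *PYRD* is the dihydroorotate dehydrogenase of pyrimidine synthesis. The loci most like *DFR* were *GSTF12*, *CNX3*, *EXO70H8*, AT1G22970 and *PHIP1*, with r between 0.98 and 0.99.

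*GSTF12* is the glutathione transferase that helps bring anthocyanins into the vacuole. The probe most like *DFR* had log2 ratios of 2.98 and -0.15 in *AvSAMS1* TF and of 0.87 and -0.12 in Col-0, close to those of *DFR* on each array. Like *DFR*, it was not well above background in the untreated plants of *AvSAMS1* TF replicate 1. The brighter probe of the same gene had -1.87 and 0.34 in *AvSAMS1* TF and -0.32 and 1.22 in Col-0, opposite in sign on all 4 arrays, so the response of *GSTF12* is uncertain.

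The other genes around the pathway were taken from lists that, with the enzymes and the tissue markers, hold 86 loci, of which 78 passed the filter. None of these passed an adjusted p of 0.05 in any of the comparisons. The 8 genes that feed the pathway (the phenylalanine ammonia-lyases *PAL1* to *PAL4*, *C4H* and *4CL1* to *4CL3*) were well above background on all arrays, with median log2 ratios of -0.81 and 0.02 in *AvSAMS1* TF and -0.31 and 0.06 in Col-0. On both replicate 2 arrays 3 of the 8 were below 0. The lowest mean was that of *PAL1*, with -1.68 and -0.26 in *AvSAMS1* TF and -1.17 and -0.03 in Col-0 (adjusted p = 0.591 over both lines).

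Of the 17 genes of flavonoid decoration and transport, 16 passed, with medians of 0.12 and -0.27 in *AvSAMS1* TF and 0.46 and 0.09 in Col-0. Among the 11 of them well above background in all 8 channel values, *UGT78D1*, which joins rhamnose to flavonols, had the highest mean, with 2.07 and -0.52 in *AvSAMS1* TF and 1.01 and 0.32 in Col-0. Its level differed between the lines in the opposite direction to most of the 10 enzymes, at 9.37 and 10.68 in Al-treated *AvSAMS1* TF against 7.40 and 8.19 in Al-treated Col-0 (adjusted p = 0.319). *OMT1*, a methyltransferase that uses S-adenosylmethionine on flavonols and lignin precursors, had -1.52 and -0.48 in *AvSAMS1* TF and -0.47 and -0.17 in Col-0, below 0 on all 4 arrays, with a mean of -0.66 ± 0.26 over both lines (SE, adjusted p = 0.563). Of the 7 genes of the proanthocyanidin branch of the seed coat 5 passed, and none was well above background in all 8 channel values.

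Of the 13 activating regulators 11 passed, but only 3 (*TTG1*, *HY5* and *HYH*) were well above background in all 8 channel values, and most of the flavonol and anthocyanin MYB factors were at background in replicate 1. *PAP1*, the MYB activator of anthocyanin genes, is named because its values were seen to lie above 0 throughout. It had 1.49 and 0.82 in *AvSAMS1* TF and 1.48 and 0.40 in Col-0, with a mean of 1.05 ± 0.29 over both lines (SE, adjusted p = 0.521) and an untreated signal of *AvSAMS1* TF replicate 1 that was not well above background. Its relatives *PAP2* and *MYB113*, named after their values were seen, lay on opposite sides of 0 in the lines in replicate 2, where both were well above background in both channels. *PAP2* had -2.12 in *AvSAMS1* TF replicate 2 against 0.89 in Col-0 replicate 2, and *MYB113* had -2.27 against 0.95 on the same arrays. The Al-treated levels there were alike, at 8.62 in *AvSAMS1* TF and 8.87 in Col-0 for *PAP2* and at 7.63 and 7.67 for *MYB113*. The untreated levels differed, at 10.55 in *AvSAMS1* TF and 8.08 in Col-0 for *PAP2* and at 9.57 and 7.04 for *MYB113*. In replicate 1 *PAP2* had -0.36 in *AvSAMS1* TF against 0.73 in Col-0 and *MYB113* 0.34 against 2.06, with the untreated plants of both lines not well above background for either gene. The difference between the lines was -2.04 ± 0.72 for *PAP2* (SE, adjusted p = 0.999). *HY5*, the light-response bZIP factor that binds promoters of early flavonoid genes, had -0.53 and 0.01 in *AvSAMS1* TF and -0.34 and 0.17 in Col-0. Its level was higher in the *AvSAMS1* TF samples, at 11.11 and 11.31 against 8.98 and 9.66 in Col-0 for the Al-treated plants and at 11.58 and 11.26 against 9.28 and 9.44 in Col-0 for the untreated plants (adjusted p = 0.160 and 0.146).

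All 8 repressing regulators were well above background throughout. *MYBL2*, a MYB repressor of late anthocyanin genes, had the lowest mean, with 0.07 and -1.19 in *AvSAMS1* TF and -1.89 and -1.81 in Col-0. The Col-0 replicates were close to each other and those of *AvSAMS1* TF were not, and neither the response in Col-0 (-1.85 ± 0.40, SE, adjusted p = 0.656) nor the difference between the lines (1.29 ± 0.57, SE, adjusted p = 0.999) passed. *SPL9* and *MYB4* had the highest means of the repressors, with 2.49 and 1.85 on *AvSAMS1* TF replicate 1 and ratios between -0.64 and 0.45 on the other arrays.

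Markers of leaf and root were read on the same arrays. All 8 leaf photosynthesis markers were well above background throughout. They had median log2 ratios of 0.73 and 0.05 in *AvSAMS1* TF and of -1.26 and -0.21 in Col-0. All 8 were above 0 on *AvSAMS1* TF replicate 1 and below 0 on Col-0 replicate 1, beside 47.8% and 47.5% of all probes below 0 there. Their summed level, on the linear scale, was 1446940 and 1411820 in Al-treated *AvSAMS1* TF against 744913 and 1238050 in Al-treated Col-0, and 795528 and 1060770 in untreated *AvSAMS1* TF against 2178740 and 1244380 in untreated Col-0. On the replicate 1 arrays the leaf markers thus had their higher ratios in *AvSAMS1* TF. The 10 enzymes went both ways there in *AvSAMS1* TF minus Col-0. This difference was above 0 for *CHS* (1.05), *CHIL* (2.68), *F3H* (0.73), *FLS1* (1.07) and *DFR* (2.22). It was below 0 for *CHI* (-0.42), *F3'H* (-0.08), *FLS3* (-2.15), *FLS5* (-2.71) and *LDOX* (-0.82). The values of *CHIL*, *FLS1*, *FLS3*, *DFR* and *LDOX* rest in part on signals not well above background, so their sizes are not measured.

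The 8 root markers were below 0 in 6 of 8 and 8 of 8 cases on the *AvSAMS1* TF arrays and in 5 of 8 and 8 of 8 on the Col-0 arrays. Of all probes, 47.8%, 53%, 47.5% and 51.1% were below 0 on these arrays, and 41.9% on both replicate 2 arrays. The medians of the root markers were -1.18 and -1.75 in *AvSAMS1* TF and -0.37 and -2.83 in Col-0. Most root markers were thus below 0 in replicate 1 as well, where the medians of the 10 enzymes were 0.30 and 0.13. The summed level of the root markers was 876 and 850 in Al-treated *AvSAMS1* TF against 2102 and 1081 in Al-treated Col-0, and 1155 and 1551 in untreated *AvSAMS1* TF against 993 and 6087 in untreated Col-0. Much of this was *TIP2;3*, without which the sum was 710 and 709 in Al-treated *AvSAMS1* TF against 773 and 776 in Al-treated Col-0, and 992 and 1394 in untreated *AvSAMS1* TF against 744 and 3439 in untreated Col-0. Only *CASP2* and *TIP2;3* were well above background in all 8 channel values. Of the 4 seed markers 1 passed the filter, and *BAN*, *SESA2* and *OLEO1* were well above background in none of the 8 channel values. The part of leaf and root material in the values of the 10 enzymes was not tested.

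**Figure D5:**
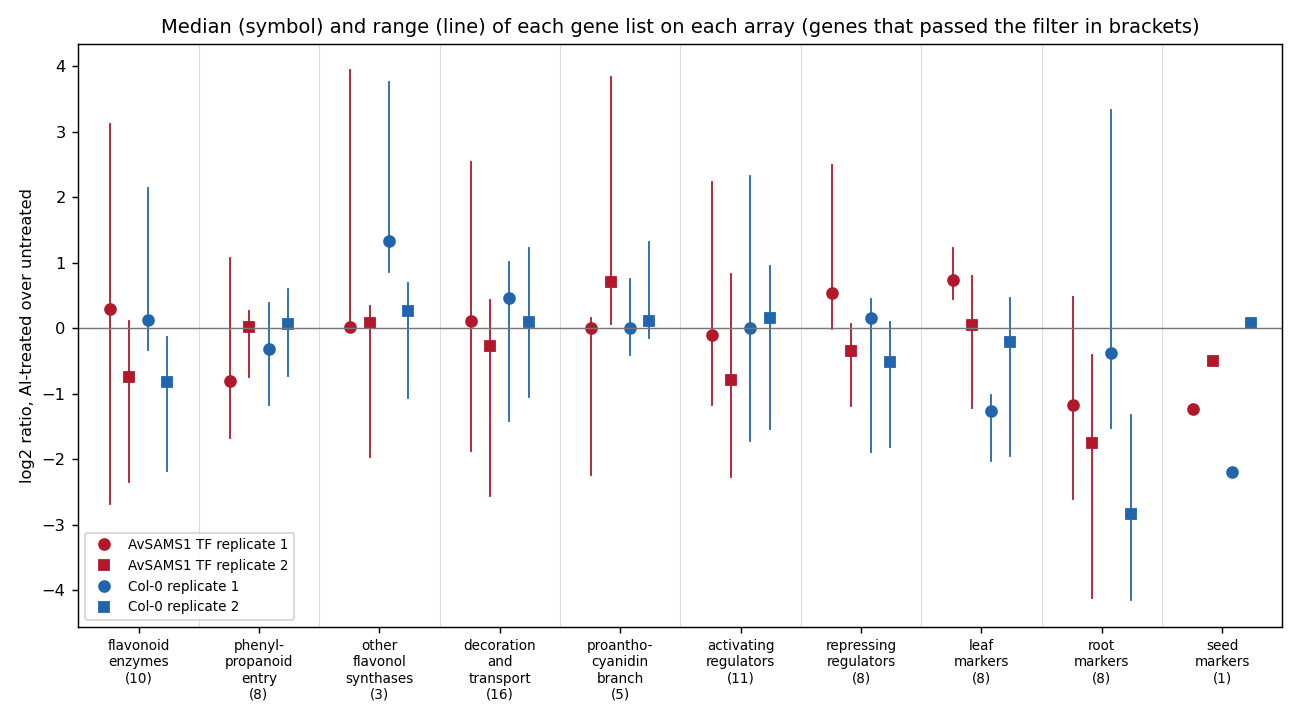
Median (symbol) and lowest to highest log2 ratio (line) of Al-treated over untreated plants (vertical axis) for each list of genes (horizontal axis, with the number that passed the filter) on each of the 4 arrays, with *AvSAMS1* TF in red, Col-0 in blue, replicate 1 as circles and replicate 2 as squares. The medians of the flavonoid enzymes are above 0 in replicate 1 (0.30 and 0.13) and below 0 in replicate 2 (-0.74 and -0.82) in both lines, the leaf markers separate the lines in replicate 1, and the root markers are lowest on Col-0 replicate 2.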

How the data were processed

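The scanner files of the 4 arrays were deposited as Agilent Feature Extraction output, version 11.0.1.1 for replicate 1 and 10.7.1.1 for replicate 2 by the file headers, while the submitters' processing notes name 10.7.3.1. The deposited log10 ratio of Cy5 over Cy3 is background-subtracted, detrended and dye-normalized within the array by linear and lowess steps. The deposited files also hold each channel's processed signal intensity, and the median intensity of the spot and of the background around it, which the authors left as scanned. The P-values beside the ratios cover 1 array and were not used. The log2 values in the series table, made by the authors with GeneSpring GX 12.5, equal the log2 ratio of the processed signals. Their medians were 0.10 and -0.03 in *AvSAMS1* TF, and 0.10 and -0.08 in Col-0 (replicates 1 and 2), and their scale, centring and direction are thus known.

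Ratios were put on the log2 scale, without control spots and without spots marked as outliers (10 to 23 an array), and repeated spots of a probe were averaged. Loci came from the annotation in the files (34485 probes) and symbols from RefSeq's TAIR10.1 gene table. The 34724 probes with 2 or more arrays well above background in 1 or both channels, and a ratio on all 4, entered limma 3.58.1 (R 4.3.3; lmFit and eBayes, 1 coefficient per line, 2 residual degrees of freedom, Benjamini-Hochberg adjustment over all probes). A gene is given by its brightest probe. Levels were compared within a dye after normexp (offset of 50), loess and Aquantile. The share of truly changed probes that these fits would call at the spread of these arrays was not tested. The number of arrays limits the precision.

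The labels number the arrays of each line as 1 and 2, and the paper describes 2 independent RNA sets from separate plant pools. Same-numbered arrays of the lines were therefore taken as pairs, and that they shared an experiment is an assumption. Same-numbered arrays deviated from the mean of their line with a correlation of 0.47 (2 pairs, which mirror each other). The genes named are the 10 enzymes with all probes, from each other list those past the threshold or past 2-fold in 1 direction on all arrays and the 2 highest and 2 lowest means among genes well above background throughout, of which the most marked are described, and the 5 loci most like *CHS* and *DFR*. *PAP1*, *PAP2*, *MYB113*, *LHCA1*, *UGT89C1*, *UGT75C1*, *BGLU10* and the markers at background were named after their values were seen. The enzymes, lists and tests were chosen with earlier results of these data known. The alternatives were another background correction, normalization, filter, test, probe rule or source of the ratio, a replicate block, and each array left out. The arrays carry Arabidopsis probes, and the transgene was not analysed here.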

Additional observations from a re-analysis of the deposited data

Results flagged for a closer look

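In 7 genes of the lists both arrays of a line lay on the opposite side of 0 from both arrays of the other. The share of all probes with this pattern was not counted, so the number is no result about the lists. In a wider pattern, both *AvSAMS1* TF ratios lay below both Col-0 ratios in 12% of all probes. The difference of the Al response, *AvSAMS1* TF minus Col-0, was -0.77 for *PAL4*, a phenylalanine ammonia-lyase, with log2 ratios of -0.82 and -0.03 in *AvSAMS1* TF and 0.08 and 0.60 in Col-0. It was -0.48 for *UGT89C1*, a flavonol rhamnosyltransferase, with -0.01 and -0.30 in *AvSAMS1* TF and 0.36 and 0.29 in Col-0. It was -0.78 for *BGLU10*, an anthocyanin glucosyltransferase, with -0.36 and -0.23 in *AvSAMS1* TF and 0.62 and 0.35 in Col-0. It was -2.04 for *PAP2*, a MYB activator of anthocyanin genes, with -0.36 and -2.12 in *AvSAMS1* TF and 0.73 and 0.89 in Col-0, of which those of replicate 1 came from signals at background. In 3 leaf markers *AvSAMS1* TF was above 0 and Col-0 below it. The difference was 1.49 for *LHCB1.3* (1.13 and 0.79 in *AvSAMS1* TF, -1.02 and -0.04 in Col-0), 1.18 for *LHCA1* (0.63 and 0.49 in *AvSAMS1* TF, -1.08 and -0.16 in Col-0) and 1.14 for *PETE2* (0.77 and 0.48 in *AvSAMS1* TF, -1.02 and -0.0042 in Col-0). In the limma fit of the difference none of the 7 passed (adjusted p = 0.999 for each), and several of the ratios lie close to 0. None of the 10 enzymes was among the 7.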

How the results depend on the processing

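No enzyme passed an adjusted p of 0.05 under any alternative, the lowest being 0.0593 (*CHIL*, untreated plants, replicate block), and of 406 values under alternatives that kept all arrays 8 changed direction. With normexp and loess these were *CHS* (-0.063) and *F3'H* (0.026) in *AvSAMS1* TF, *DFR* for the difference (-0.070), and *CHIL* (-0.17) and *LDOX* (0.0022) over both lines. With median centring *FLS1* in *AvSAMS1* TF was at 0.00054, and with the mean over the probes of a gene *F3H* (0.021) and *FLS3* (-0.12) in *AvSAMS1* TF. The replicate block, by which the arrays are paired, left the counts of the Al response at 0 and gave 367 probes for the untreated and 248 for the Al-treated plants. For the untreated plants the processed signals gave 128 probes and the strict filter 0, and the strict filter also gave 0 for the Al-treated plants. Without any 1 array both of these counts were 0 (0 to 0), in fits with 1 residual degree of freedom that take the spread of the lone array from the other line. The paper describes a t-test in its general statistics, but for the arrays it gives the P-value of the log ratio. Applied to the arrays here, that t-test took 1081 probes in *AvSAMS1* TF, 2323 in Col-0, 513 for the difference and 3461 over both lines before adjustment. *FLS5* in *AvSAMS1* TF was among them (-2.51), and after adjustment 1 probe in Col-0 was left. Early minus late, not measured on *AvSAMS1* TF replicate 1, was computed as 0.26, -0.73, -0.62 and -0.77 with normexp and loess (*AvSAMS1* TF replicates 1 and 2, then Col-0), -0.56 on *AvSAMS1* TF replicate 1 with means, 0.78 there with *F3'H* as a late step (-0.57 and -0.97 on the Col-0 arrays), and -0.98 there and -1.08 on Col-0 replicate 2 without *CHIL*. The cause was not tested. The slide as a random block could not be fitted with 4 arrays.

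Leaving out 1 array in turn changed the direction in 31 of 240 values. In *AvSAMS1* TF the ranges were -1.12 to 1.29 for *CHS*, -0.81 to 2.52 for *CHIL*, -0.67 to 0.40 for *F3H*, -0.25 to 0.19 for *F3'H*, -1.001 to 0.97 for *FLS1* and -0.014 to 0.027 for *FLS3*. In Col-0 they were -1.32 to 0.24 for *CHS*, -0.89 to 0.28 for *F3'H*, -0.27 to 2.14 for *FLS3*, -2.18 to 0.024 for *FLS5*, -0.13 to 0.90 for *DFR* and -0.35 to 0.47 for *LDOX*. For the difference they were -0.58 to 1.83 for *CHS*, -0.36 to 2.97 for *CHIL*, -0.30 to 0.86 for *F3'H*, -0.028 to 1.94 for *FLS1*, -2.13 to 0.27 for *FLS3*, -0.28 to 2.73 for *DFR* and -0.73 to 0.084 for *LDOX*. Over both lines they were -0.83 to 0.37 for *CHS*, -0.63 to 1.03 for *CHIL*, -0.46 to 0.12 for *F3'H*, -0.13 to 1.07 for *FLS3* and -0.31 to 0.10 for *LDOX*. Between the untreated plants they were -0.87 to 0.15 for *CHI*, -1.15 to 0.13 for *FLS3* and -2.22 to 0.094 for *DFR*, and between the Al-treated plants -0.13 to 0.96 for *F3'H* and -0.75 to 0.18 for *FLS5*.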

Other observations

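The level of *UGT89C1*, which joins rhamnose to flavonols, was lower in the *AvSAMS1* TF samples, as were those of *CHS* and *CHIL*. It was at 9.32 and 10.23 in Al-treated *AvSAMS1* TF against 11.26 and 11.51 in Al-treated Col-0, and at 9.27 and 10.45 in untreated *AvSAMS1* TF against 10.95 and 11.19 in untreated Col-0. The groups did not overlap in either treatment, with differences of -1.61 ± 0.38 in the Al-treated plants (SE, adjusted p = 0.299) and -1.21 ± 0.48 in the untreated plants (SE, adjusted p = 0.709). *UGT78D1*, which also joins rhamnose to flavonols, differed by 2.23 ± 0.55 in the Al-treated plants (SE, adjusted p = 0.319), in the opposite direction. None of these differences passed the test.

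*UGT75C1*, the anthocyanin glucosyltransferase, had log2 ratios of 2.54 and -0.10 in *AvSAMS1* TF and of 0.79 and -0.13 in Col-0. This is the order of the 4 arrays seen in *DFR*, and as in *DFR* the untreated signal of *AvSAMS1* TF replicate 1 was not well above background (adjusted p = 0.670 over both lines). It was picked after its values were seen.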
